A study of Mus musculus with 24 samples.

Results

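The 77 genes described here encode the proteins of the cytosolic ribosome and were measured by RNA sequencing in the mouse dentate gyrus, a region of the hippocampus where granule neurons are added throughout adulthood. They are the rows of the count table whose symbol has the form of a large-subunit (Rpl, with Rplp for the stalk) or small-subunit (Rps, with Rpsa) protein and whose counts sum to at least 1000 over all libraries. Such a symbol was borne by 81 of the 26667 genes counted, and 77 of those met the minimum, 45 of the large and 32 of the small subunit. The 4 below it were Rpl10l with a summed count of 0, Rpl39 with 71, Rpl39l with 94 and Rpl3l with 505. The member nearest to the minimum was Rps27l with 15332, so no gene lay close to it.

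The 24 libraries fall into 5 groups. The combined group is 5 APP/PS1 mice given BCI-838 and a running wheel, the wheel group is 5 APP/PS1 mice with a wheel only, the BCI-838 group is 4 APP/PS1 mice given the drug only, and the controls are 5 APP/PS1 mice with neither and 5 WT mice of the C57BL6/J strain. APP/PS1 mice carry transgenes for the amyloid precursor protein and presenilin and form amyloid plaques, and BCI-838 is taken by mouth and converted in the body into a blocker of the glutamate receptors mGluR2 and mGluR3. Per the labels, BCI-838 was dosed at 5 mg/kg daily for 1 month and the wheel was freely available for 1 month. The design text has mice without the drug on vehicle, and it gives no age or sex. Each library is 1 frozen dentate gyrus sample, and the labels describe the replicates as separate mice.

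Each ribosome is built from a small subunit, which decodes the mRNA, and a large subunit, which joins amino acids and carries the tunnel through which the new protein leaves. Cells make the proteins of both subunits in matched amounts and degrade what is not assembled. The mRNAs of ribosomal proteins are short and abundant, and they start with a run of pyrimidines, the 5′ terminal oligopyrimidine (TOP) tract, through which the kinase complex mTORC1 and the RNA-binding protein Larp1 set how much of each mRNA is translated. In neurons they are among the mRNAs found in dendrites and axons, where protein synthesis takes place near synapses.

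The start regions of 7 members are shown because the values below turn on these genes, and pyrimidine runs near their annotated starts are marked. Each is 80 bases of the RefSeq promoter table (GRCm38.p6), 50 before the annotated start and 30 from it, read 5′ to 3′ on the gene's strand, with the longest run of at least 5 C or T that begins with C within 20 bases of the start in capitals.
Rps26: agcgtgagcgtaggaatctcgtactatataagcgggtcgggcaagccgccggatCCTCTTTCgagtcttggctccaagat
Rps15a: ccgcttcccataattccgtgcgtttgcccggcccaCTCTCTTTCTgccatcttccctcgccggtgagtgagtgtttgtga
Rps6: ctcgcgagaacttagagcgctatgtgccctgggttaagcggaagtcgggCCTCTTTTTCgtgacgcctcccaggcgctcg
Rpsa: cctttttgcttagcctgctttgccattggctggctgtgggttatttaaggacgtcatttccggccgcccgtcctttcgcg
Rpl28: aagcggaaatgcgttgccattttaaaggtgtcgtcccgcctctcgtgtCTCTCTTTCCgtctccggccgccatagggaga
Rpl7a: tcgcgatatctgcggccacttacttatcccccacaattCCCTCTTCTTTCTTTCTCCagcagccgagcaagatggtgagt
Rpl14: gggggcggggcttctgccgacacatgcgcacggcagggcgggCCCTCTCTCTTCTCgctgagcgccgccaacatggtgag
They lie at chr10:128626477-128626556 (-), chr7:118116118-118116197 (-), chr4:86857338-86857417 (-), chr9:120127716-120127795 (+), chr7:4792915-4792994 (+), chr2:26910757-26910836 (+) and chr9:120571467-120571546 (+), in the order shown. Of the 77 members 57 had an entry in the table, and 45 of these (78.9%) held such a run, against 52.2% of 27025 genes with an entry. A run of at least 8 was held by 27 members (47.4%) and by 15.7% of all genes. The median run of the members was 9 bases. Within 20 bases of the annotated start Rpsa holds no such run, although 2 runs of this form stand farther out in its 80 bases. The first marked base lies before the annotated start in Rps15a, Rps6, Rpl28, Rpl7a and Rpl14 and after it in Rps26. A marked run is therefore a match of letters and not a mapped TOP tract.

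Library totals ranged from 48656360 to 64632882 counts, and all 77 members passed the filter on low counts that left 18286 genes to test. App averaged 3379 CPM (counts relative to library size, scaled by TMM factors) in APP/PS1 controls and 1728 CPM in WT controls, and Prnp, whose promoter drives many APP/PS1 transgenes, averaged 2006 CPM in APP/PS1 controls and 846 CPM in WT controls, as the labels place them. In 4 libraries Ttr, a marker of the choroid plexus, exceeded 100 CPM, and these were combined replicate 5 and APP/PS1 control replicates 2, 4 and 5. All 8 granule neuron markers listed, Prox1 and Calb1 among them, were detected in every group, but their summed level varied between 278 and 1388 CPM in WT controls and 404 to 1518 CPM in APP/PS1 controls. Their mean log2 CPM was 4.56 in WT control replicate 3, with the other WT controls between 6.09 and 7.25. WT control replicate 3 and BCI-838 replicate 3 each stood apart from the rest of their group in a measure given at the end.

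Ribosomal protein mRNAs took between 1.19% and 1.97% of all counts in a library. The share was 1.24, 1.33, 1.19, 1.44 and 1.26% in combined replicates 1 to 5, 1.93, 1.97, 1.39, 1.28 and 1.63% in wheel replicates 1 to 5 and 1.43, 1.36, 1.31 and 1.39% in BCI-838 replicates 1 to 4. It was 1.63, 1.52, 1.30, 1.51 and 1.36% in APP/PS1 controls and 1.37, 1.30, 1.49, 1.30 and 1.35% in WT controls. Wheel replicates 1, 2 and 5 held the highest shares in the series, while wheel replicates 3 and 4 lay among those of the other groups. The means were 1.29% ± 0.0963 in the combined group (SD, n = 5), 1.64% ± 0.310 in the wheel group (SD, n = 5), 1.37% ± 0.0502 in the BCI-838 group (SD, n = 4), 1.46% ± 0.134 in APP/PS1 controls and 1.36% ± 0.0787 in WT controls (SD, n = 5 each). Counting error was far smaller than these spreads, as in combined replicate 1, whose exact 95% binomial interval ran from 1.237% to 1.243%. Such intervals cover counting error only. In bulk tissue, fewer cells of a type and less RNA per cell cannot be told apart.

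**Figure D1:**
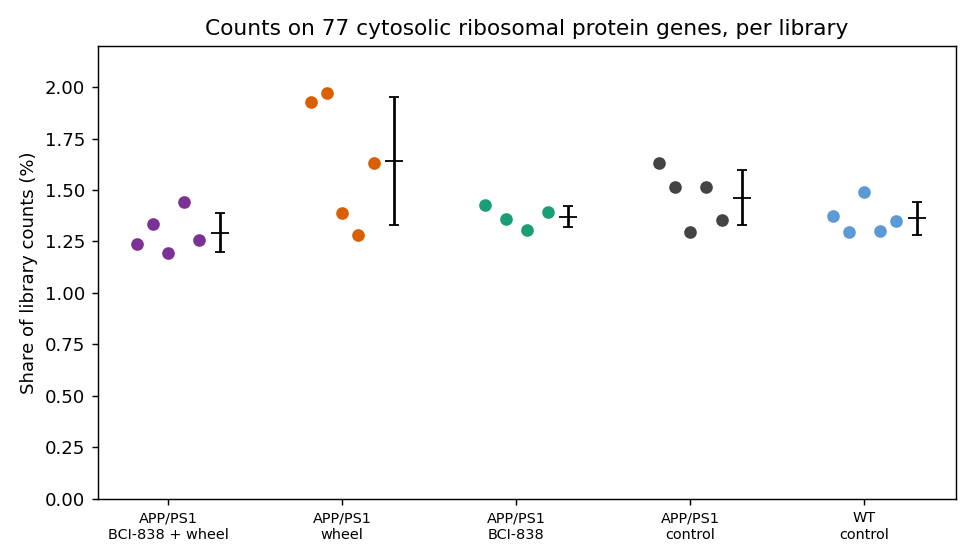
Percent of each library's counts that fell on the 77 ribosomal protein genes (y axis), by group (x axis), with 1 point per mouse and the mean ± SD beside the points. Wheel replicates 1, 2 and 5, at 1.93%, 1.97% and 1.63%, are the highest points, with APP/PS1 control replicate 1 next at 1.63%, and the 5 combined libraries lie between 1.19% and 1.44%.

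Within a library the members differed widely in level. Per kilobase of transcript the mean over all libraries ran between 22.6 and 891 CPM, a 39.4-fold range around a median of 238, and 63 members lay within 2-fold of that median. The highest were Rplp1, an acidic protein of the stalk that recruits elongation factors, with 891 CPM per kilobase, Rps21 with 587 and Rps15 with 515. The lowest were Rps27l, a paralog of Rps27, with 22.6 CPM per kilobase and Rps20 with 28.2.

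The length used changes these ranks. The annotated transcript of Rps20 is 3706 bases for 357 coding bases, and per kilobase of coding sequence Rps20 stood 56th of 77. On that scale the highest were Rpl41, one of the shortest of all proteins, with 2818 CPM per kilobase, Rplp1 with 1300 and Rps29 with 1117, and Rps27l with 44.7 and Rps9 with 78.0 were among the 3 lowest. Levels also depend on where reads were assigned, because 76 of the 77 members share stretches of 50 bases with at least 1 annotated pseudogene. The median member shared 61.2% of its 50-base stretches with other genes, Rps27 shared 98.6%, and Rpl7a shared some with 120 pseudogenes. How reads with several matches were counted is not given in the sources used here, so the low level of a member with many copies is uncertain.

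**Figure D2:**
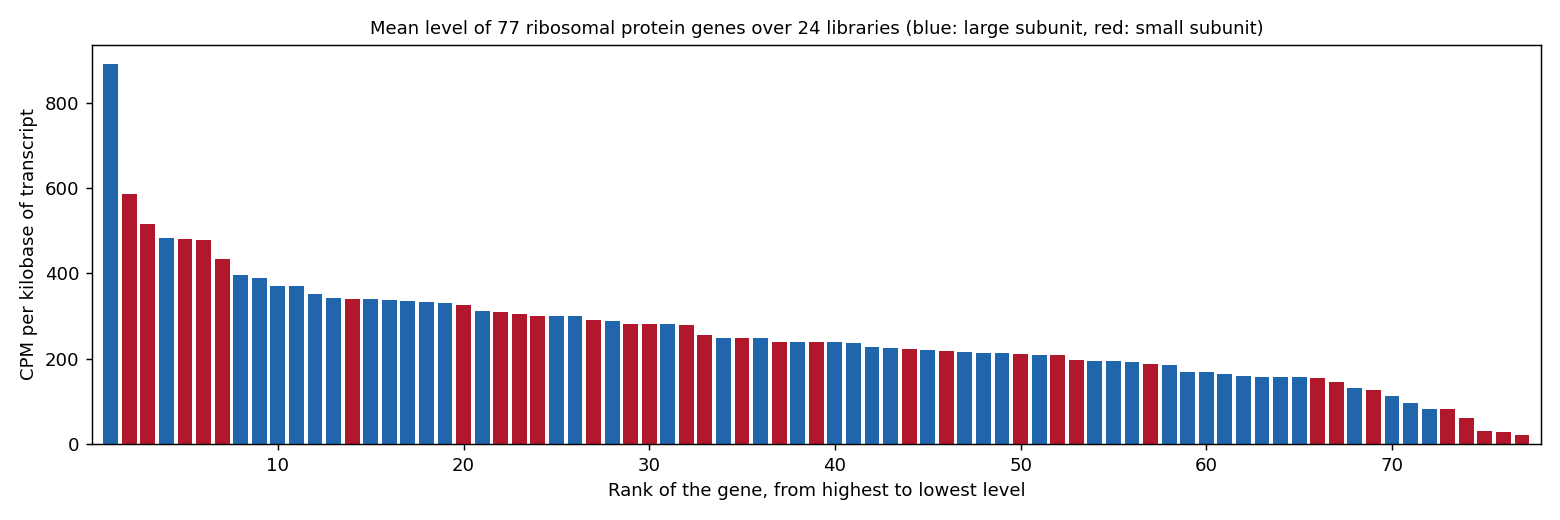
Mean level of each of the 77 members over 24 libraries (y axis, CPM per kilobase of the annotated transcript), by rank (x axis), with blue bars for the large and red bars for the small subunit. Rplp1 leads with 891 and Rps27l closes with 22.6.

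The members on the X chromosome were Rps4x, Rpl10 and Rpl36a, and members lay on 19 chromosomes in all, with 14 on chromosome 7. Rpl10, which helps form the site where tRNAs bind, averaged 231 CPM over all libraries, Rpl36a 89.6 CPM and Rps4x, a protein of the small subunit, 81.0 CPM. Rps27a, which is made as a fusion with ubiquitin, averaged 178 CPM.

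Ribosomal protein mRNAs were highest in the wheel group for every member. All 77 had their highest group mean there, while 37 had their lowest mean in the combined group, another 37 in the BCI-838 group and 3 in WT controls. No member passed the test in any of the 7 comparisons (adjusted p under 0.05, quasi-likelihood F test of edgeR with Benjamini-Hochberg adjustment over all 18286 genes). The members vary together between libraries, so their directions are not independent observations. The share of all genes at an unadjusted p under 0.05 was computed for the main fit only. Counts of members at that threshold from other fits stand without it.

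**Figure D3:**
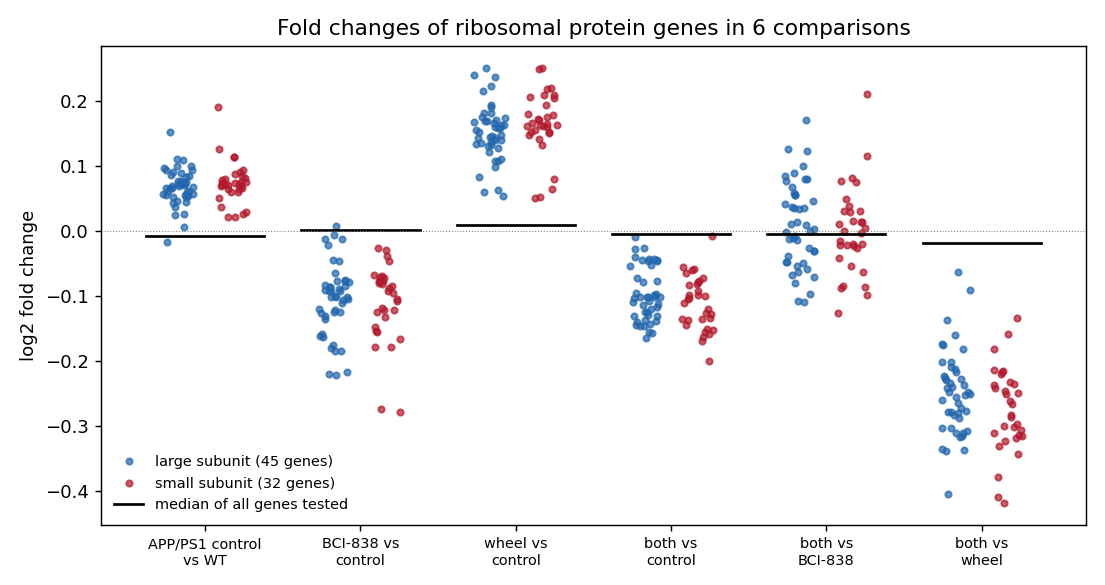
Log2 fold change (y axis) of each member in 6 comparisons (x axis), with large-subunit genes as blue points left of small-subunit genes as red points, and the median of all 18286 genes as a black bar. All 77 points lie above 0 for wheel against control and below 0 for combined against control and combined against wheel, where they reach -0.42.

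Without a covariate for transcript length, the largest median difference of the 7 comparisons was between mice with both treatments and mice with the wheel alone, the comparison that asks what BCI-838 goes with in running mice. All 77 members were at a lower level in the combined group, and the median log2 fold change was -0.26 (0.837 times the level) against -0.018 over all genes. The values ran between -0.42 and -0.063, with a median of -0.25 in the large and -0.27 in the small subunit. None passed with edgeR (0 of 18286 genes did, a background of 0%), and the smallest adjusted p of a member was 0.0983. At an unadjusted p under 0.05 the count was 64 members (83.1%), against 8.83% of all genes lower at that threshold. DESeq2 called 10 members (13.0%), against 2.67% of the 14031 genes it gave an adjusted p, and limma voom with quality weights called 62 (80.5%), against 5.41% of genes.

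The 5 wheel libraries were not alike. The median log2 fold change was between -0.34 and -0.19 when 1 library was left out. The members at an unadjusted p under 0.05 were 38 without wheel replicate 2 and 42 without wheel replicate 1, and edgeR called 18 members without wheel replicate 3, where it called 2.19% of all genes. In a fit of the compared libraries alone the count at an unadjusted p under 0.05 was 41 and the smallest adjusted p of a member 0.323. For these fits the share of all genes at an unadjusted p under 0.05 was not computed. With an index of transcript length as a covariate, described below, the median was -0.074. Wheel replicate 4, which had the lowest mean log2 CPM over the members, had 18884 genes detected, against 19606 or more in every other library. Under total-count scaling, in which the median of all genes was at -0.095, the members' median was -0.34.

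Among the proteins of the small subunit, Rps26, which lines the channel where the mRNA leaves, had the smallest p. It lies at chr10:128624534-128626747 (GRCm38) and was at 128, 134, 114, 144 and 133 CPM in combined replicates 1 to 5, against 185, 189, 145, 152 and 179 CPM in wheel replicates 1 to 5. It was the only member whose values did not overlap between these groups, where 0.864% of all genes were lower without overlap. Its log2 fold change was -0.38 (SE 0.082, adjusted p = 0.0983).

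Rpsa, a small-subunit protein that is also known as the laminin receptor, lies at chr9:120127689-120132369 and was at 294, 325, 252, 344 and 345 CPM in the combined group, against 481, 456, 336, 372 and 428 CPM in the wheel group. Wheel replicate 3 lay within the range of the combined group, and the log2 fold change was -0.41 (SE 0.099, adjusted p = 0.115). Rps2, which lies at the entry of the mRNA channel, differed by -0.24 (SE 0.097, adjusted p = 0.221). Rps6, the substrate of the S6 kinases downstream of mTORC1, differed by -0.18 (SE 0.085, adjusted p = 0.272), with means of 174 ± 11.5 CPM in the combined group and 197 ± 32.0 CPM in the wheel group (SD, n = 5 each).

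Among the proteins of the large subunit, Rpl8, which sits by the catalytic centre, was at 250.5, 251, 259, 285 and 252 CPM in the combined group, against 369, 362, 283, 272 and 325 CPM in the wheel group. Only wheel replicates 3 and 4 fell within the combined range, and the log2 fold change was -0.31 (SE 0.080, adjusted p = 0.131). The 3 stalk proteins were below 0 too, Rplp0 by -0.23 (SE 0.083, adjusted p = 0.181), Rplp1 by -0.34 (SE 0.11, adjusted p = 0.150) and Rplp2 by -0.32 (SE 0.10, adjusted p = 0.148). The smallest difference of any member was that of Rpl15, at 161, 161, 154, 162 and 144 CPM in the combined group and 181, 164, 163, 136 and 173 CPM in the wheel group, and the log2 fold change was -0.063 (SE 0.064, adjusted p = 0.633). The 45 members with a pyrimidine run within 20 bases of their annotated start had a median of -0.25, and the 12 without one there -0.27.

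**Figure D4:**
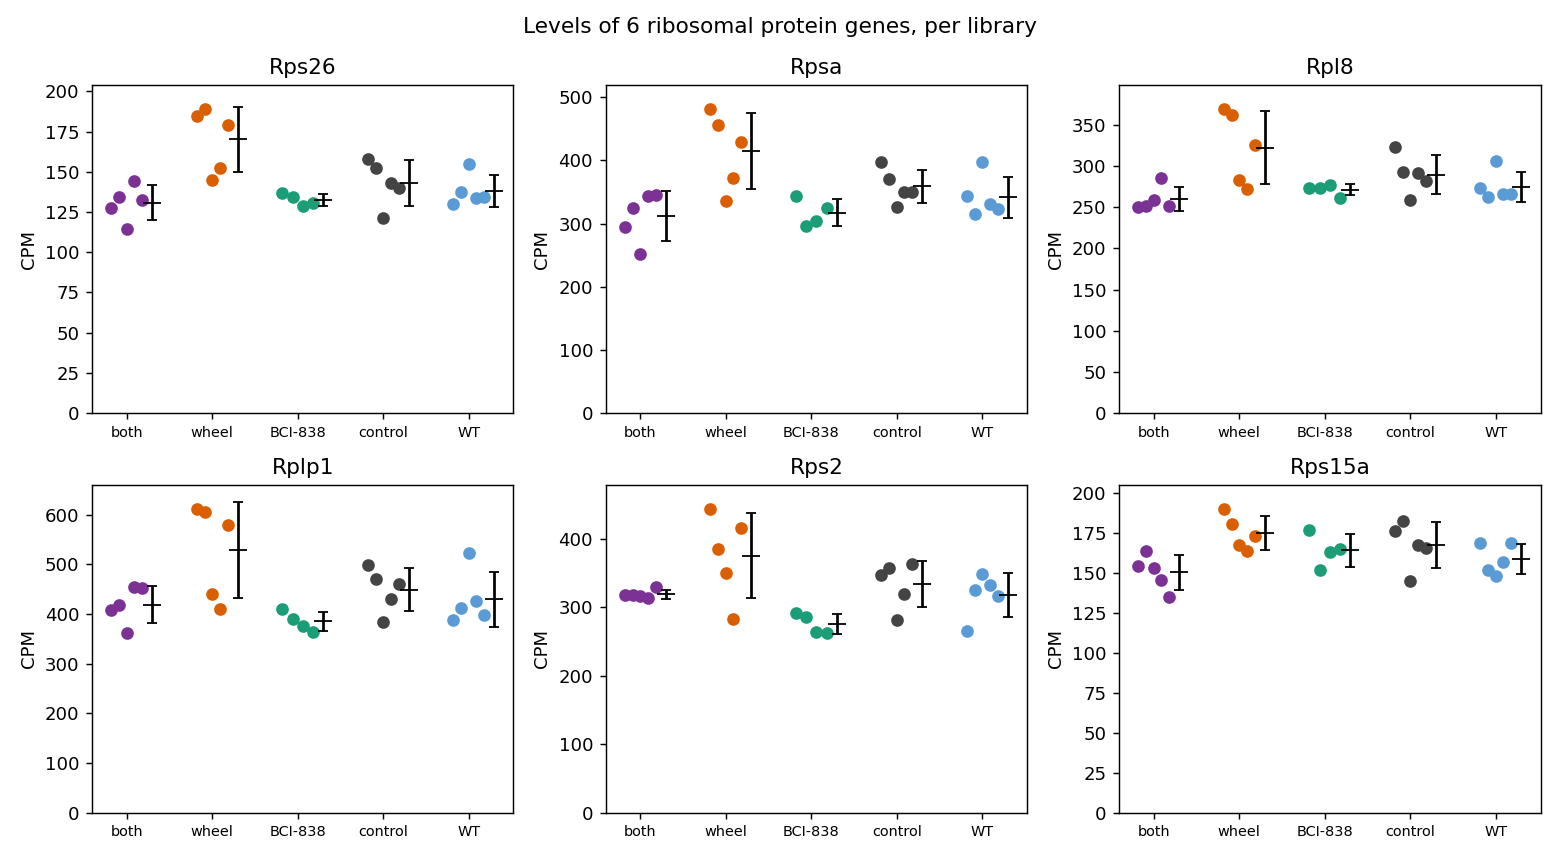
Level in CPM (y axis, from 0) of Rps26, Rpsa, Rpl8, Rplp1, Rps2 and Rps15a in each library by group (x axis, both being BCI-838 with the wheel), with 1 point per mouse and the mean ± SD beside the points. The wheel group has the widest spread in Rplp1, Rpl8 and Rps2, and Rps26 separates the combined and wheel groups without overlap.

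Markers of other cells also had medians away from 0 between the combined and the wheel group. All 8 endothelial markers were lower, with a median of -0.37 as log2 fold change and summed levels of 179 to 229.6 CPM in combined libraries and 229 to 296 CPM in wheel libraries, and none of the 8 was at 0. All 8 dorsal midbrain and thalamus markers were lower by a median of -1.36 (summed levels 19.1 to 181 CPM in combined libraries and 26.7 to 324 CPM in wheel libraries), and 7 of 8 CA field markers were higher by a median of 0.55 (344 to 1307 CPM in combined and 370.1 to 782 CPM in wheel libraries). None of the 16 was at 0 in either group. All 3 red blood cell markers tested were lower by a median of -0.74 (summed levels 11.0 to 16.6 CPM in combined and 14.4 to 33.3 CPM in wheel libraries), with none at 0. All 8 oligodendrocyte markers were lower by a median of -0.23, over 2160.5 to 12077 CPM in combined and 5290.0 to 8424 CPM in wheel libraries, with none at 0. Of 10 choroid plexus markers 9 were higher (median 0.81, 128 to 687 CPM in combined and 189.5 to 274 CPM in wheel libraries). Of 8 microglia markers 7 were higher (median 0.12), and of 8 granule neuron markers 7 were lower (median -0.068). At an unadjusted p under 0.05 were 6 endothelial, 3 red blood cell, 1 CA field, 1 choroid plexus and 1 granule neuron marker. The midbrain, oligodendrocyte and microglia lists had 0. Of all 18286 genes 8.83% were lower and 1596 were higher at that threshold. The count called was 0 in each list. The part of these markers in the ribosomal protein result was not tested.

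In mice with the wheel and no drug, set against APP/PS1 controls, all 77 members were at a higher level, by a median log2 fold change of 0.16 (1.12 times the level) against 0.0088 over all genes. The range was 0.050 to 0.25, with medians of 0.15 in the large and 0.16 in the small subunit. With edgeR 0 members passed (1 gene of all tested did, 0.00547%), nor did any with DESeq2 (0.334% of genes) or voom (0% of genes). At an unadjusted p under 0.05 there were 11 members (14.3%), against 2.37% of all genes higher at that threshold. That count was 1 in a fit of the compared libraries alone.

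Rps26 was at 185, 189, 145, 152 and 179 CPM in the wheel group, against 158, 153, 121, 143 and 139.9 CPM in APP/PS1 controls, and its log2 fold change was 0.25 (SE 0.082, adjusted p = 0.495). Wheel replicates 3 and 4 lay inside the control range. Rpl28, a large-subunit protein, was at 217, 226, 153, 148 and 194 CPM in the wheel group and 181, 159, 146, 157 and 151 CPM in controls, with replicates 3 and 4 again among the controls, and differed by 0.24 (SE 0.099, adjusted p = 0.787). Rps15, a small-subunit protein near the decoding site, differed by 0.22 (SE 0.096, adjusted p = 0.853) and Rpl7a, an early-binding large-subunit protein, by 0.17 (SE 0.075, adjusted p = 0.866). Rps4x had the smallest difference, 0.050 (SE 0.072, adjusted p = 1.000).

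The size of this difference depended on single libraries. The members' median log2 fold change was 0.089 without wheel replicate 2, 0.096 without wheel replicate 1 and 0.23 at most. The share of all genes at an unadjusted p under 0.05 was not computed for these fits, so a change particular to the members cannot be told. The members' count was 68 without wheel replicate 4, 43 without wheel replicate 3 and 29 without APP/PS1 control replicate 1. It was 6 or fewer without wheel replicate 1, 2 or 5, APP/PS1 control replicate 3, 4 or 5, WT control replicate 2 or 4, any 1 of the 4 BCI-838 libraries, or combined replicate 1, 2 or 5. Of the choroid plexus markers all 10 were lower in the wheel group, which has none of the high-Ttr libraries (summed levels 189.5 to 274 CPM in wheel libraries and 238 to 2501 CPM in APP/PS1 controls, none at 0). All 8 endothelial markers were higher by a median of 0.24, with 229 to 296 CPM in wheel libraries and 192 to 248 CPM in APP/PS1 controls and none at 0, and their part was not tested. Without the 4 high-Ttr libraries the members' median was also 0.16, with 1 member at an unadjusted p under 0.05. That fit keeps only APP/PS1 control replicates 1 and 3. Their mean log2 CPM over the members, 7.52 and 7.22, were the highest and the lowest of that group. The unchanged median therefore cannot show what part choroid plexus RNA has.

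BCI-838 in mice without a wheel, set against APP/PS1 controls, went with values on the other side of 0. In that comparison 76 of the 77 members were at a lower level, by a median log2 fold change of -0.10 (0.932 times the level), with a median of 0.00015 over all genes. The count that passed was 0 with edgeR (0% of genes) and with DESeq2 (0.954% of genes), and voom called 1 member, Rps2, against 2.32% of genes. At an unadjusted p under 0.05 edgeR counted 3 members (3.9%), against 5.96% of all genes lower at that threshold, so the members' share was not above the background.

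Rps2 was at 292, 285, 264 and 263 CPM in BCI-838 replicates 1 to 4 and 348, 358, 282, 319 and 362 CPM in APP/PS1 controls, where only control replicate 3 lay inside the range of the drug group. Its log2 fold change was -0.28 (SE 0.10, adjusted p = 0.356), with an adjusted p of 0.0327 by voom. Rps27l was at 9.37, 10.3, 8.98 and 11.3 CPM with the drug and 13.2, 12.6, 10.2, 12.6 and 12.1 CPM in controls, with overlap at control replicate 3, and differed by -0.28 (SE 0.12, adjusted p = 0.402). The stalk proteins Rplp0 and Rplp2 differed by -0.19 (SE 0.088, adjusted p = 0.482) and -0.22 (SE 0.11, adjusted p = 0.494), and Rpl17 stood at 0.0070, the highest of the members and the only one above 0.

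The groups did not overlap for 4 members, all lower with BCI-838, where 2.2% of all genes were lower without overlap. Rpl13a, known for a role outside the ribosome in the translational control of inflammatory mRNAs, was at 140.5, 152, 139 and 150.1 CPM with the drug and 181, 171, 158, 164 and 172 CPM in controls. Also among them were Rpl31 and Rpl41, with log2 fold changes of -0.13 and -0.16. Leaving out APP/PS1 control replicate 1 brought the members' median to -0.064. The count at an unadjusted p under 0.05 was 14 without APP/PS1 control replicate 3, 10 without wheel replicate 4, 7 without WT control replicate 3, 5 or 6 without wheel replicate 1, 2 or 3 or combined replicate 2, and 1 without BCI-838 replicate 3 or APP/PS1 control replicate 1. It was 0 without the high-Ttr libraries, a fit that keeps only APP/PS1 control replicates 1 and 3, with a median of -0.10. The share of all genes at that threshold was not computed for these fits.

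Markers of other cells had medians away from 0 here too. Of 10 choroid plexus markers 9 were lower by a median of -1.98, 8 of them at an unadjusted p under 0.05, with summed levels of 206 to 259 CPM in BCI-838 libraries and 238 to 2501 CPM in APP/PS1 controls. Of 8 dorsal midbrain and thalamus markers 6 were higher (median 1.42), with 117 to 329 CPM in BCI-838 libraries and 39.6 to 527 CPM in APP/PS1 controls. Only 1 of these 8 had an unadjusted p under 0.05, and it was lower with BCI-838. Of 8 astrocyte markers 7 were higher (median 0.16), 1 at an unadjusted p under 0.05, with 6096 to 6273 CPM in BCI-838 libraries and 4670.1 to 6400.0 CPM in APP/PS1 controls. Medians were above 0 for neuroblast (0.39, 5 of 8 higher), interneuron (0.30, 5 of 8) and endothelial markers (0.12, 7 of 8). They were below 0 for red blood cell (-0.46, all 3 tested lower) and CA field markers (-0.17, 6 of 8 lower). At an unadjusted p under 0.05 were 2 neuroblast, 2 endothelial, 2 CA field and 0 red blood cell markers, with 2 interneuron markers higher and 1 lower. No marker of these lists was at 0 in either group, and their part was not tested. The fit without the high-Ttr libraries selects on Ttr alone and keeps only APP/PS1 control replicates 1 and 3, so it cannot decide this.

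Mice with both treatments, set against APP/PS1 controls, had all 77 members at a lower level, by a median log2 fold change of -0.10 (0.930 times the level) against -0.0059 over all genes. None passed with edgeR (0% of genes), DESeq2 (0.449% of genes) or voom (0% of genes), and 1 member had an unadjusted p under 0.05 (1.3%, against 5.73% of all genes lower). That member was Rps15a, a small-subunit protein, at 154, 164, 153, 146 and 135 CPM in the combined group and 176, 183, 145, 167 and 165 CPM in controls, and the log2 fold change was -0.15 (SE 0.068, adjusted p = 0.441). The groups overlapped, since control replicate 3 was below 4 of the 5 combined libraries. Rpsa differed by -0.20 (SE 0.099, adjusted p = 0.481), Rpl8 by -0.16 (SE 0.080, adjusted p = 0.496) and Rps28, the member nearest to 0, by -0.0087 (SE 0.19, adjusted p = 0.993). The count at an unadjusted p under 0.05 was 10 without APP/PS1 control replicate 3, 4 without replicate 4 of the wheel or of the combined group, 3 without WT control replicate 3, 2 without WT control replicate 2, wheel replicate 1, 2 or 3 or combined replicate 2, and 0 when APP/PS1 control replicate 1 or 2 was left out. Under total-count scaling, where the median of all genes was -0.080, the members' median was -0.18 with 16 members at an unadjusted p under 0.05.

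All 10 choroid plexus markers were lower in this comparison (median -2.01), with summed levels of 128 to 687 CPM in combined libraries and 238 to 2501 CPM in APP/PS1 controls. All 8 dorsal midbrain and thalamus markers were lower (median -1.05), 2 at an unadjusted p under 0.05, with 19.1 to 181 CPM in combined libraries and 39.6 to 527 CPM in controls. All 8 microglia markers were higher (median 0.24), 6 at an unadjusted p under 0.05, with 313 to 431 CPM in combined libraries and 296 to 340 CPM in controls. All 3 red blood cell markers tested were lower (median -0.74), each at an unadjusted p under 0.05, with 11.0 to 16.6 CPM in combined libraries and 12.4 to 30.8 CPM in controls. None of these markers was at 0 in either group. Of all 18286 genes 5.73% were lower and 890 were higher at that threshold. Without the high-Ttr libraries the members' median was -0.10 with 0 at an unadjusted p under 0.05. That fit keeps only APP/PS1 control replicates 1 and 3 of the control group. The part of the markers was not tested.

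The wheel added to BCI-838 went with no common direction. The combined group, set against the BCI-838 group, had 38 members higher and 39 lower, and the median log2 fold change was -0.00031, where all genes had a median of -0.0057. None passed with edgeR (0% of genes), DESeq2 (1.53%) or voom (4.79%), and 0 had an unadjusted p under 0.05, where 7.48% of all genes were higher and 6.84% lower at that threshold. The median was -0.087 under total-count scaling, where the median of all genes was -0.094. Without 1 library it ran between -0.034 and 0.032, and the count at an unadjusted p under 0.05 was at most 1.

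For 2 members every combined library was above every BCI-838 library, where 4.3% of all genes were higher without overlap. Rps2 was at 318, 318, 316, 313 and 330.1 CPM in the combined group and 292, 285, 264 and 263 CPM in the BCI-838 group, and its log2 fold change was 0.21 (SE 0.10, adjusted p = 0.362). Rplp0 was at 209, 199, 199.9, 209.6 and 211 CPM in the combined group and 197, 193, 189 and 194 CPM in the BCI-838 group, and its log2 fold change was 0.088 (SE 0.088, adjusted p = 0.706). Rps15a lay on the other side of 0 at -0.13 (SE 0.072, adjusted p = 0.435), as did Rpl17 at -0.11 (SE 0.093, adjusted p = 0.640), while Rpl13a was at 0.17 (SE 0.11, adjusted p = 0.526).

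Whether the difference with BCI-838 depends on the wheel was tested with the interaction, the log2 fold change with the drug in running mice minus that in mice without a wheel. The members' median was -0.15 (all genes -0.013), with 73 members below 0 and 4 above. None passed with edgeR (0% of genes), DESeq2 (0.421%) or voom (0%), and 3 had an unadjusted p under 0.05 (3.9%, against 4.23% of all genes below 0 at that threshold), Rps26 at -0.27 (SE 0.12, adjusted p = 0.480), Rpl17 at -0.28 (SE 0.13, adjusted p = 0.487) and Rpl26 at -0.29 (SE 0.14, adjusted p = 0.509). The most opposite member was Rps27l at 0.064 (SE 0.16, adjusted p = 0.933). Under total-count scaling the median of all genes was at -0.10 and that of the members at -0.25. The count at an unadjusted p under 0.05 was 16 with total counts, 14 with the length covariate and 28 with voom. For these fits, and those with 1 library left out, the share of all genes at that threshold was not computed. The members' median was -0.078 without wheel replicate 2 and -0.099 without wheel replicate 1. The count at an unadjusted p under 0.05 was 21 without wheel replicate 4, 12 without wheel replicate 3, 9 without combined replicate 4, 8 without APP/PS1 control replicate 1, and 1 or 0 without wheel replicate 1, 2 or 5, APP/PS1 control replicate 3, 4 or 5, BCI-838 replicate 1, 2 or 4, or combined replicate 1, 3 or 5.

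In untreated mice, APP/PS1 controls had 76 of 77 members at a higher level than WT controls, by a median log2 fold change of 0.070 (1.05 times the level), against -0.0078 over all genes. Neither edgeR nor the others called a member (edgeR 0.0109% of genes, DESeq2 0.0766%, voom 0.0109%), and 0 had an unadjusted p under 0.05, where 2.0% of all genes were higher and 0.755% lower at that threshold. Rps4x was at 88.5, 92.2, 75.1, 82.5 and 81.7 CPM in APP/PS1 controls and 69.5, 78.0, 81.9, 77.1 and 78.3 CPM in WT controls, with overlap, and differed by 0.13 (SE 0.072, adjusted p = 1.000). Rps27l differed by 0.19 (SE 0.11, adjusted p = 1.000), Rpl18 by 0.15 (SE 0.10, adjusted p = 1.000) and Rpl38, the member below 0, by -0.018 (SE 0.18, adjusted p = 1.000). Leaving out WT control replicate 3 gave a members' median of 0.12 with 1 member at an unadjusted p under 0.05, and leaving out APP/PS1 control replicate 3 gave 0.11 with 2 such members. When APP/PS1 control replicate 1 was left out the median was 0.033, and under total-count scaling it was 0.11, where that of all genes was 0.026. With voom it was 0.12. All 10 choroid plexus markers were higher in APP/PS1 controls, with summed levels of 238 to 2501 CPM there and 199 to 299 CPM in WT controls. The members' median was 0.070 when the high-Ttr libraries were left out, which keeps only APP/PS1 control replicates 1 and 3.

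The members varied together between libraries. With group means removed, the median Pearson r between 2 members over the 24 libraries was 0.86, and 100% of pairs had an r above 0. All points share their library, its dissection and its depth, so this is a description. Against the mean log2 CPM of the other members, Rpl14 (r = 0.98), Rps10 (0.98) and Rpl9 (0.97) followed most closely. Rps15a (0.37), Rpl22 (0.66) and Rpl4 (0.67), a protein of the exit tunnel wall, followed least. The median r of other genes with the members' mean was 0.013.

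The 15 other genes most like the members by this measure (r between 0.90 and 0.96 over 24 libraries) included further parts of the ribosome. Among them were Fau, whose product is processed to a small-subunit protein, Rpl36al and Rpl22l1, with the elongation factor gene Eef1b2, the initiation factor gene Eif3g, Cox7a2l, Ndufa1, Grcc10, Nme2, Snrpd2, Dpm3, Sarnp, Bola2 and Psmb1. Their annotated transcripts are 387 to 1939 bases long. The lowest were Mkln1 (r = -0.93), Arhgap5 (-0.92), Usp9x (-0.92), Impad1 (-0.91) and Nup98 (-0.91), with transcripts of 5197 to 11887 bases.

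Transcript length moved with the members across the series. The members' annotated transcripts had a median of 729 bases, and 71 of the 77 belong to the shortest 20% of tested genes (up to 1383 bases) and 0 to the longest 20% (from 4473 bases). An index was formed for each library as the mean log2 CPM of these short genes, members left out, minus that of the long ones. Over the 24 libraries the members' mean log2 CPM followed it with a Pearson r of 0.93 and a Spearman rho of 0.85, with an r of 0.86 without the 2 libraries farthest from the median index and 0.92 with group means removed. Both measures come from the same libraries and the same scaling. The mean log2 CPM of the astrocyte markers had an r of -0.53 with the members, microglia markers 0.28, total count -0.11 and Ttr 0.0053. The number of genes detected had an r of 0.19, and 0.52 with group means removed. Without the 2 libraries farthest from its median, and with group means kept, its r was -0.023.

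**Figure D5:**
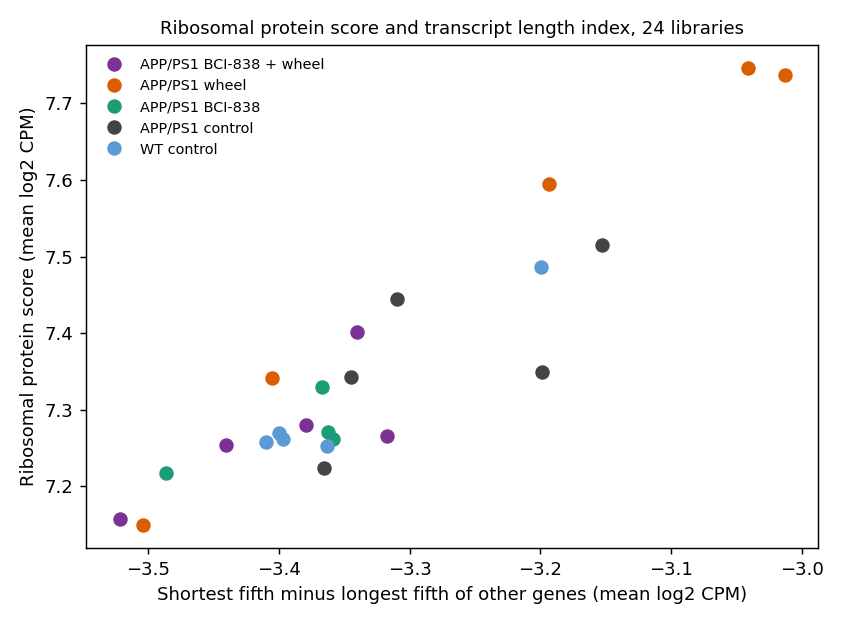
Mean log2 CPM of the 77 members (y axis) against the index of short minus long transcripts (x axis, difference in mean log2 CPM, members left out), with 1 point per library coloured by group. The points rise together (r = 0.93, n = 24), with wheel replicates 1, 2 and 5 among those at the upper right and wheel replicate 4 at the lower left.

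Short transcripts other than the members were also lower in the combined group than in the wheel group. Of 3436 short genes 2323 were lower (median -0.11), while 2426 of 3504 long genes were higher (median 0.11). With the index as a covariate, an alternative chosen after seeing the data, the members' median log2 fold change in this comparison was -0.074, with 65 lower and 12 higher, 16 at an unadjusted p under 0.05 and 0 called. For the wheel against controls the median with this covariate was 0.097, with 75 members higher and 2 lower, 28 at an unadjusted p under 0.05 and 0 called. The share of all genes at that threshold was not computed with the covariate. These counts therefore cannot be set against those of the main fit. It was 0.012 for BCI-838 and 0.022 for the combined group against controls, -0.0086 for the genotype, 0.0046 for the wheel added to the drug and -0.093 for the interaction. RNA quality per library is not given in the sources used here, and its part in these values was not tested.

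Other genes of the translation machinery were set beside the members in the comparison of the combined with the wheel group, and none of them passed with edgeR. All 5 genes tested among the ribosomal proteins and paralogs outside the naming rule had values below 0 (median log2 fold change -0.24), with Rpl22l1 at -0.26 (SE 0.093). Of 19 other mRNAs with a known TOP tract 16 were lower, by a median of -0.16, with 8 at an unadjusted p under 0.05. Of all genes 8.83% were lower at that threshold. Among these were Btf3, part of the complex that binds new peptides, at -0.28 (SE 0.079) and the elongation factor gene Eef1g at -0.23 (SE 0.068).

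The factors that act on ribosomes were closer to the median of all genes, -0.018. The 36 initiation factor genes had a median of -0.0032, with 19 lower and 17 higher, and Eif6, which keeps the subunits apart, was at -0.23 (SE 0.061). Of 51 ribosome biogenesis genes 37 were lower, by a median of -0.064, with Mrto4 at -0.32 (SE 0.088) and the nucleolar methyltransferase gene Fbl at -0.22 (SE 0.076). The 21 genes of mTORC1 and of TOP translation had a median of -0.0081, with 11 lower and 10 higher. Cnbp, which binds TOP mRNAs, was at -0.23 (SE 0.057) and Mtor at 0.21 (SE 0.076). Of 13 elongation and termination factor genes 9 were lower, with a median of -0.064, and of 9 genes of ribosomal protein chaperones and nuclear import 4 were lower, with a median of 0.017. The 18 genes of the integrated stress response had a median of -0.038, with 10 lower and 8 higher.

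The ribosome of mitochondria and the respiratory chain lay between. For 75 genes of the mitochondrial ribosome the median log2 fold change was -0.12, with 69 below 0 and 19 at an unadjusted p under 0.05, and Mrps15 was at -0.32 (SE 0.071, adjusted p = 0.0987). Of 76 nuclear genes of the respiratory chain and ATP synthase 72 were lower, by a median of -0.18, with 32 at an unadjusted p under 0.05, and Ndufs7 was at -0.30 (SE 0.082, adjusted p = 0.131). The share of all genes lower at that threshold was 8.83%. For the wheel against APP/PS1 controls the medians were 0.091 for the mitochondrial ribosome, with 70 of 75 higher, and 0.14 for the respiratory chain, with 71 of 76 higher. Whether these lists differ from the cytosolic ribosomal proteins was not tested.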

How the data were processed

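RNA sequencing of total RNA measured gene expression in 24 dentate gyrus samples. The authors deposited a table of read counts per gene for the series. The submitters' processing notes list STAR, HTSeq and DESeq, and build mm10. For their versions, strand use and reads with several matches the answer is not given in the sources used here. Normalised values, in a second table, were not used.

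Groups and replicate numbers came from the labels. Counts were scaled with TMM factors, genes were kept by filterByExpr (minimum count 10, minimum total 15), and all 24 libraries were fitted together, 1 mean to each group, with edgeR 4.0.16 in R 4.3.3 (quasi-likelihood F test, robust). The threshold for a call was 0.05 for p adjusted by Benjamini-Hochberg over all 18286 genes. SEs are the log2 fold change over the square root of F. The p-values set the difference between groups against a spread between mice that was estimated from all 24 libraries and moderated across genes. DESeq2 1.42.0 and limma 3.58.1 (voom with quality weights) were alternatives, with other scalings and filters, a replicate block, the compared libraries alone, no high-Ttr libraries (over 100 CPM), and each library left out. Log2 CPM for scores and correlations used a prior count of 2. Lengths, coordinates and shared 50-base stretches are from GENCODE M21 (GRCm38), all 77 members matched.

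In simulated counts for combined against wheel, over 18286 genes, the test found 51% of 1.5-fold changes and 81% of 2-fold ones, with 5 false calls. No 2 libraries agreed within sampling noise (lowest chi-square per gene 19.5). The members, lists and tests were chosen with earlier results of these data known. The genes named in each comparison are the 4 members with the smallest p and the one most opposite, the extremes in level and correlation, stalk and X-linked members and a few fixed by name, those without overlap, and of each other list up to 3 with the smallest p. Members of the other lists were chosen likewise. Results for some of these genes are not reported here.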

Additional observations from a re-analysis of the deposited data

Results flagged for a closer look

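In 10 of 85 groups of 4 or 5 libraries tested, 1 library stood far from the rest by Dixon's ratio. The 85 are the same 24 libraries seen in measures that vary together, so the 10 are not separate cases and have no expected number. WT control replicate 3 accounts for 7 of the 10, which is 1 library seen in 7 measures. Its mean log2 CPM over the members was 7.49, with the other WT controls between 7.25 and 7.27, and its index of short minus long transcripts was -3.20, with the others between -3.41 and -3.36. It was also highest for Rps26 at 155 CPM, Rpl8 at 306 CPM, Rplp1 at 524 CPM, Rplp2 at 164 CPM and Rpl28 at 179 CPM, where the other WT controls reached at most 137, 273, 426, 139 and 153 CPM in that order. BCI-838 replicate 3 had an index of -3.49, with the rest of its group between -3.37 and -3.36. In the combined group replicate 4 was highest for Rpl8 at 285 CPM, with the others between 250.5 and 259 CPM, and replicate 5 for Rps2 at 330.1 CPM, with the others between 313 and 318 CPM.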

How the results depend on the processing

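No member was called in any comparison by edgeR under other scalings or filters, the compared libraries alone, no high-Ttr libraries, the replicate block or the length covariate. Calls appeared for the combined against the wheel group with DESeq2 (10) and voom (62) and when 1 library was left out (0 to 18), and for BCI-838 against controls with voom (1). Of 76 settings of the members' median log2 fold change 3 moved it beyond 1 SD of the library scores. With the length covariate it was 0.012 for BCI-838 and 0.022 for the combined group against controls. With total counts it was -0.087 for the wheel added to the drug. This SD is wide, 0.20 for the wheel against controls and 0.11 for the genotype, where the medians were 0.16 and 0.070. A median of 0 would not count as moved there, so the count of 3 does not measure stability. For the combined against the wheel group the SD was 0.195, and -0.074 with the length covariate did not count either. The count of members at an unadjusted p under 0.05 depended on the setting. Without the share of all genes in each setting, a change in the members cannot be told from a change over all genes. For the wheel against controls it was 1 with the compared libraries alone, 28 with the length covariate and 56 with voom, for BCI-838 against controls 16 with the compared libraries alone and 26 with voom, and for the combined group against controls 18 with voom. Members near 0 changed sign. Rpl38 (genotype) was at 0.021 with total counts, 0.0020 with upper quartile factors, 0.067 with voom, 0.035 without the high-Ttr libraries and between -0.061 and 0.068 with 1 library left out. Rpl17 (BCI-838 against controls) was at -1.28e-05 with DESeq size factors, -0.0048 with upper quartile factors, -0.0043 without a filter, -0.0015 with a 1 CPM filter, -1.58e-05 with DESeq2, -0.017 with voom, -0.0025 with the replicate block, -0.0011 with the compared libraries alone and between -0.032 and 0.037 with 1 left out. Rps28 (combined against controls) ranged between -0.055 and 0.049, and Rps27l (interaction) was at -0.024 with total counts and between -0.0067 and 0.15. The cause was not tested. Replicate numbers did not pair the samples (median r of same-numbered samples of different groups -0.0055, n = 46 pairs, against -0.0047 for others). The replicate block gave a median of -0.25 for the combined against the wheel group, with 58 members at an unadjusted p under 0.05 and 0 called, and 0.15 with 5 for the wheel against controls. With 4 or 5 mice a group the members' median SE was 0.095 for the combined against the wheel group, which limits what these libraries resolve.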
